A study of Mus musculus with 21 samples.

Results

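The measurements described here come from 6 of the 21 RNA-seq libraries of a study of RNA silencing in mouse embryonic stem cells, chosen by their labels alone. In 3 libraries the cells had been transfected with pCIP FH-T6B_WT::mCherry, a plasmid for the T6B peptide fused to a red fluorescent protein (T6B_WT). In the other 3 they had received pCIP FH-T6B_MUT::mCherry, the matched plasmid with a mutated peptide (T6B_MUT). All 6 came from the same mouse embryonic stem cell line of 129S6/SvEvTac background, which carries the reporter GFP_5xT71BS at the locus labelled yGlob and a stably integrated FLAG-Cas9::T2A::Blasticidin construct, so both groups share these alleles as well as the transfection. The cells grew on gelatin with serum and LIF. Total RNA was purified with DNase treatment on the column and sequenced from stranded total-RNA libraries. The other 6 libraries of the same experiment, labelled Trim71-/- or Ago2-/- with an empty plasmid, entered the fit only to help estimate the spread, and the study's 9 libraries of Experiment 1 gave cells labelled Ago2-/- and parental cells for values set side by side. The labels state neither the time between transfection and harvest, nor whether transfected cells were sorted, nor whether the libraries came from separate cultures, so the p-values measure only the spread between these libraries.

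MicroRNAs guide Argonaute proteins to partly complementary sites, mostly in the 3′ untranslated region (3′ UTR) of messenger RNAs. Argonaute then binds a TNRC6 (GW182) protein, which recruits the deadenylases and decapping factors that repress and destroy the message. T6B is a peptide from the Argonaute-binding region of human TNRC6B: it occupies the binding pockets of all Argonaute proteins and so keeps the full-length TNRC6 proteins away, while the mutant lacks the tryptophans needed for binding. In mouse embryonic stem cells the miR-290 and miR-302 families and the miR-17-92 and related clusters are known to supply most of the microRNAs.

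The 6 libraries held 38102032 to 57872324 counts, and 21505 of 22512 genes had enough counts to be tested. The first principal component, with 50% of the variance, placed the 3 T6B_WT libraries on one side and the 3 T6B_MUT libraries on the other. No pair of replicates agreed within sampling noise (chi-square per degree of freedom 3.59 to 21.8), so each library counted once. Embryonic stem cell markers were high in both groups. Their 9 genes summed to between 4214 and 4407 CPM (counts scaled to the size of each library) in T6B_WT and between 4364 and 4462 CPM in T6B_MUT. Of 10 fibroblast markers only 5 were in the table, and they summed to 11.3 to 12.2 CPM in T6B_WT and 11.4 to 12.8 CPM in T6B_MUT.

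More genes were higher than lower with the T6B peptide, and most of the large changes were upward. In edgeR's quasi-likelihood test with Benjamini-Hochberg adjustment, 3437 of the 21505 genes passed an adjusted p of 0.05, which is 16% of those tested. Of these 1998 (9.29%) were higher in T6B_WT, with a median log2 fold change of 0.52, and 1439 (6.69%) were lower, with a median of −0.34. The median over all genes was 0.01. Changes of at least 1 on the log2 scale were far more frequent upward (438 genes, 2.04%) than downward (34 genes, 0.158%). Where the mean log2 CPM reached 2 or more, such changes numbered 58 upward and 1 downward, so the imbalance was not limited to genes with few counts. Genes called higher had a median mean log2 CPM of 3.55, and genes called lower 4.6. The counts of calls depended on the libraries in the fit: they fell to 2045 (1284 higher and 761 lower) without T6B_MUT replicate 1, and the count of lower genes was 940 to 952 without T6B_WT replicate 1 or 2 or T6B_MUT replicate 2 or 3. With the 6 T6B libraries fitted alone 5632 genes were called (2977 higher and 2655 lower), and without the 3 libraries labelled Ago2-/-, a choice made after seeing the data, 4626 (2544 higher and 2082 lower).

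**Figure D1:**
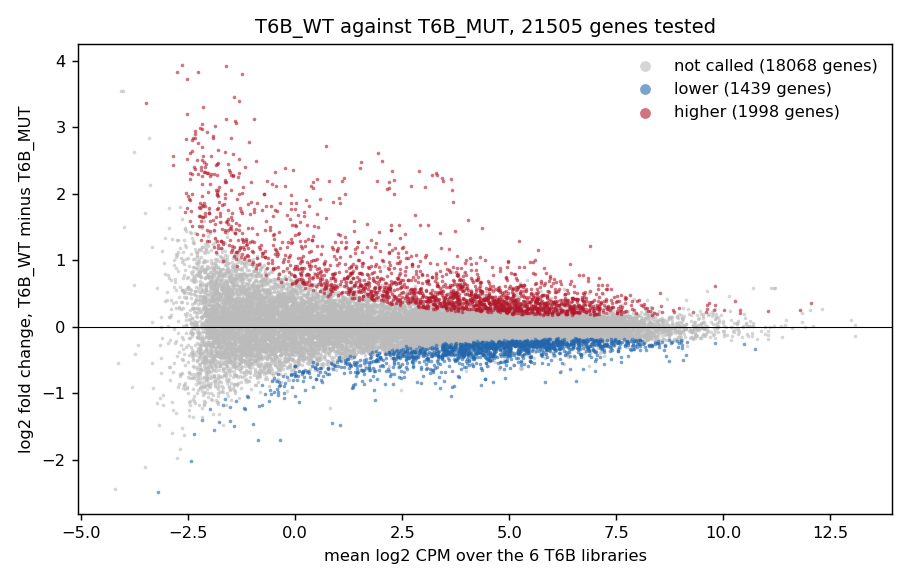
Log2 fold change (T6B_WT minus T6B_MUT) of the 21505 tested genes against their mean log2 CPM over the 6 libraries; red points were called higher, blue points lower, grey points not called. Large upward changes (438 genes at or above 1) extend far beyond the large downward ones (34 genes at or below −1).

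By class of transcript, 1792 of 14888 protein-coding genes were called higher and 1202 lower, or 12% and 8.07%. Unprocessed pseudogenes had the highest share called higher among classes with over 200 genes, 46 of 245 (18.8%), with 6 lower, and this class includes Zscan4a. Processed pseudogenes had more lower than higher, with 90 higher (2.6%) and 148 lower (4.28%) of 3457. Both shares were below the 9.29% and 6.69% of all genes. The small nucleolar RNA class had 4 of 245 members lower (1.63%), and the genes of microRNA hairpins had 2 of 154 lower (1.3%). Long intergenic RNAs had 28 higher (5.26%) and 20 lower (3.76%) of 532.

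Of the gene lists examined, that of the 2-cell-like state had the largest share of genes called higher and the largest median. This state is a rare and transient condition of embryonic stem cells in which genes of the 2-cell embryo, such as the telomere-regulating Zscan4 genes, are switched on. Zscan4c (chromosome 7) was present at 25.7, 27.7 and 26.2 CPM in the T6B_WT libraries and at 5.75, 5.95 and 5.44 CPM in the T6B_MUT libraries. The lowest T6B_WT library was thus far above the highest T6B_MUT library, with a log2 fold change of 2.22 ± 0.09 (SE, 3 libraries a group) and an edgeR adjusted p of 1.47e-11. All 9 tested members of the Zscan4 cluster, from the start of Zscan4a at chr7:10794242 to the end of Zscan4-ps3 at chr7:11614112 (GRCm38), rose by between 2.00 and 2.31 on the log2 scale. These genes are near-identical copies, so the value of each single copy is uncertain.

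Of 28 tested members of the 2-cell-like list, 24 were called higher (85.7%, against 9.29% of all genes) and 0 lower in edgeR or DESeq2 (0 also at an unadjusted p under 0.05), with a median log2 fold change of 2.14. Usp17la, Usp17lb and Gm6763 had the largest values, 3.13, 2.72 and 2.62. Members such as Usp17la and Usp17lb belong to the same family, so the 24 calls are not independent. This list, like the others, was chosen with earlier results of these data known. Duxf3, the transcription factor DUX that starts this programme, was low but called, at 0.57, 0.38 and 0.55 CPM in T6B_WT and 0.10, 0.10 and 0.10 CPM in T6B_MUT, for a log2 fold change of 2.28 ± 0.42 (edgeR adjusted p 0.000864). The summed level of the list was 175 to 181 CPM in T6B_WT and 35.5 to 44.5 CPM in T6B_MUT. The call count stayed at 24 or 25 whichever library was left out. In bulk RNA, more cells in this state and more of these transcripts per cell cannot be told apart.

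The 8 tested genes of the Eif1ad series (numbered copies such as Eif1ad8, also known from 2-cell-stage embryos) were all called higher, with log2 fold changes of 1.34 to 2.10. In Ago2-/- cells against parental cells of Experiment 1, where 10.2% of all genes were called higher and 7.78% lower, the median of the 2-cell-like list was −1.68, and Zscan4c there was −2.16 (edgeR adjusted p 5.49e-06), opposite in sign to its value with T6B. The 2 comparisons share no library, cells and transfection differed between them, and the difference was not tested. Beside the 2-cell-like genes, the summed level of the trophectoderm markers was 80.5 to 87.5 CPM in T6B_WT and 72.5 to 74.5 CPM in T6B_MUT, and their part in the result was not tested.

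Apart from these families, 1 gene belonged to the 12 largest increases at a mean log2 CPM of 2 or more. Only called genes with no overlap between the groups could enter that set. Dglucy, which encodes D-glutamate cyclase, was at 9.09, 9 and 9.72 CPM with T6B and at 2.10, 2.11 and 2.32 CPM with the mutant, for a log2 fold change of 2.09 ± 0.11 (edgeR adjusted p 2.35e-10). Its 3 T6B_WT values lay close together and well above all T6B_MUT values, and in Ago2-/- cells it was also higher, by 1.78. Dglucy overlaps other annotated genes on its own strand in GENCODE M21, so part of its count may belong to them. Next in rank, and named after their values were seen, among genes outside the Eif1ad series, came Galnt6, a glycosyltransferase (1.60), Ccnd2 (cyclin D2, 1.54), the neuronal transcription factor Neurod1 (1.53), the annexin Anxa1 (1.53), Megf11 (1.53) and Notum, a secreted inactivator of Wnt proteins (1.48). Each of these rose with an edgeR adjusted p of at most 0.0128.

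The strongest decreases were smaller than the strongest increases. The 12 genes with the largest decrease at that level lay between −1.04 and −0.83 on the log2 scale. They were Celf4, Cisd3, Spry1, Kirrel2, Ppm1j, Miat, Calca, Snx24, Ntpcr, Ccdc106, Cry1 and Hars2. Celf4, an RNA-binding splicing regulator, measured 9.43, 7.96 and 8.79 CPM with T6B and 17.7, 17 and 19 CPM with the mutant (log2 fold change −1.04 ± 0.09, edgeR adjusted p 3.09e-07). Cry1, a repressor of the circadian clock, measured 42.0, 43.5 and 43.2 CPM with T6B and 76.2, 76.8 and 75.0 CPM with the mutant (−0.83 ± 0.06, edgeR adjusted p 1.25e-08). In both genes the 2 groups of libraries were narrow and far apart, but only called genes with no overlap could enter this set. Of the 11 genes in this set with an annotated 3′ UTR, 8 had no seed match to the miR-290/miR-302, miR-17, miR-19 or miR-25/miR-92/miR-363 families. Over all 14587 tested protein-coding genes with a 3′ UTR, 54.7% had none. Of the 1189 such genes called lower, 404 (34%) held a match.

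The genes of the silencing complex itself moved in part. Argonaute and TNRC6 proteins formed a list of 7, of which 3 rose and 0 fell in edgeR (0 fell also at an unadjusted p under 0.05 and by DESeq2, where 2 rose), with a median of 0.49. The share that rose was 42.9%, against 9.29% of all genes. Ago1 was at 83.8, 79.3 and 80.3 CPM in T6B_WT and at 45.9, 51.1 and 45.8 CPM in T6B_MUT, for a log2 fold change of 0.77 ± 0.12 (edgeR adjusted p 0.00087). Tnrc6a was at 128, 121 and 138 CPM in T6B_WT and at 72.7, 81.2 and 71.9 CPM in T6B_MUT, for a log2 fold change of 0.78 ± 0.14 (edgeR adjusted p 0.00297). Neither gene had any overlap between the groups. Ago4 was scarce, at 0.81 to 1.03 CPM against 0.53 to 0.57 CPM (0.74 ± 0.22, edgeR adjusted p 0.0242), and its call was lost when any of 5 libraries was left out (highest adjusted p 0.105) and with DESeq2 (adjusted p 0.0596).

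Ago2, the only mouse Argonaute with slicing activity, was at 185, 163 and 170 CPM in T6B_WT and at 113, 143 and 112 CPM in T6B_MUT. The groups did not overlap, yet the gene was not called (log2 fold change 0.49 ± 0.38, edgeR adjusted p 0.461), in a fit whose spread includes the 3 libraries labelled Ago2-/- with the empty plasmid, which ranged from 45.6 to 167 CPM for this gene and so overlapped both T6B groups. Fitted on the 6 T6B libraries alone, Ago2 passed with an adjusted p of 0.0050, and without those 3 libraries with 0.000264. In Experiment 1 the libraries labelled Ago2-/- were lower in Ago2 than the parental ones by a log2 fold change of −1.76. Ago3 (0.26 ± 0.30), Tnrc6c (0.05 ± 0.06) and Dicer1 (0.04 ± 0.08) were not called. On the length-scaled RPKM values the authors deposited, Ago2 was the most abundant Argonaute in both groups (12.1 ± 0.82 and 8.63 ± 1.21 RPKM, mean ± SD, n = 3), followed by Ago1 (9.84 ± 0.30 and 5.78 ± 0.35 RPKM), Ago3 (1.44 ± 0.19 and 1.21 ± 0.09 RPKM) and Ago4 (0.13 ± 0.02 and 0.08 ± 0.00 RPKM). With T6B all 3 RPKM means of the Tnrc6 genes lay between 9.60 and 10.2, and with the mutant Tnrc6a was the lowest, at 5.85 ± 0.38 RPKM.

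Tnrc6b, the mouse counterpart of the gene from which the peptide derives, did not differ between the groups beyond its spread: it was at 231, 238 and 268 CPM with T6B and at 227, 245 and 217 CPM with the mutant (log2 fold change 0.10 ± 0.20, edgeR adjusted p 0.812). Both T6B groups were above the empty-plasmid groups of the same experiment, where the mean was 75.7 ± 8.66 CPM in the libraries labelled Trim71-/- and 110 ± 35.1 CPM in the libraries labelled Ago2-/- (SD, n = 3). Whether reads from the T6B plasmids were counted as Tnrc6b was not tested.

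Around the complex, changes were few. Of 14 microRNA biogenesis genes, 0 rose (0 also at an unadjusted p under 0.05 and by DESeq2) and 1 fell in edgeR: Lin28a, which blocks let-7 maturation, was at 239, 262 and 275 CPM with T6B and at 333, 330 and 330 CPM with the mutant (−0.35 ± 0.08, edgeR adjusted p 0.0058). Among 32 deadenylation, decapping and decay genes 4 rose, namely the antiproliferative deadenylase adaptors Btg2 (0.57) and Btg1 (0.45), Lsm14b (0.30) and Parn (0.24, lost without any of 5 libraries), and Pabpc4, a poly(A)-binding protein, fell (−0.33). The shares were 12.5% higher and 3.12% lower, against 9.29% and 6.69% of all genes and 12% and 8.07% of protein-coding genes. Host transcripts of microRNAs had 5 of 26 members higher (Igf2 0.92, H19 0.57, Pank1 0.47, Larp7 0.40 and Nr6a1 0.37) and 1 lower (Copz1 −0.33), and 3 stayed higher without T6B_WT replicate 2. The H19 call was lost without any of 5 libraries and the Larp7 call without any of 4. Trim71, a ubiquitin ligase and RNA-binding repressor that the study also examined, was at 417 to 445 CPM against 482 to 503 CPM and was not called (−0.20 ± 0.08, edgeR adjusted p 0.102), although it passed in the 6 T6B libraries alone (edgeR adjusted p 0.00355). In the libraries labelled Trim71-/- its mean was 402 ± 8.47 CPM (SD, n = 3), close to T6B_WT, and whether the counted part of the gene includes the deleted part was not tested.

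The microRNA families whose sites were searched are shown here by their mature sequences, because the seed (bases 2 to 8, in capitals) defines the site. Sequences and positions are those of RefSeq on GRCm38.p6. miR-302a-3p belongs to the first family. A pair of members is given for the 2 families with the closest seeds, and 1 or 2 for the others:
mmu-miR-294-3p: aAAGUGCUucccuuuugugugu
mmu-miR-302b-3p: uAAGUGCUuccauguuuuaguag
mmu-miR-17-5p: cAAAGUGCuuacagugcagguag
mmu-miR-93-5p: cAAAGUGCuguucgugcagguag
mmu-miR-19b-3p: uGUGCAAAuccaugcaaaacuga
mmu-miR-92a-3p: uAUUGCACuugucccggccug
mmu-miR-25-3p: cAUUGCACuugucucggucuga
mmu-let-7a-5p: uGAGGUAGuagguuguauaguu
miR-294-3p lies in the miR-290 cluster at chr7:3220691-3220712 on the plus strand and miR-302b-3p at chr3:127545275-127545297 on the plus strand. miR-17-5p, miR-19b-3p and miR-92a-3p lie within 1 cluster on chromosome 14, and miR-93-5p and miR-25-3p within another on chromosome 5. The miR-290/miR-302 and miR-17 seeds are the same run shifted by 1 base, so their sites AGCACTT and GCACTTT overlap, and 1456 of 14587 genes held sites of both.

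Genes with a seed match in the 3′ UTR had a higher median log2 fold change than genes with none for every family searched. These medians take no account of 3′ UTR length, which is treated below. Medians were higher for 8-base than for 7-base sites in every family except miR-130 and miR-9, so also in let-7 and miR-206. The longest annotated 3′ UTR of each of 14587 tested protein-coding genes was searched on the transcript strand. An 8-base site pairs with the whole seed and is followed by A, and a 7-base site lacks 1 of these features. In this set 12% of genes were called higher and 8.15% lower, with a median log2 fold change of 0.02. The 8-base miR-17 site GCACTTTA occurred in 617 genes (4.23% of 3′ UTRs), which had a median of 0.15, with 25.3% called higher and 3.24% lower. In the single libraries, the median log2 CPM of these genes relative to the T6B_MUT mean was 0.148, 0.133 and 0.199 in T6B_WT and −0.004, −0.008 and 0.01 in T6B_MUT. All 3 T6B_WT libraries were therefore above all 3 T6B_MUT libraries, while the 11524 genes with no miR-17 site stayed within 0.01 of zero in every library.

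The other families gave smaller medians for their 8-base sites. The 8-base miR-25/miR-92/miR-363 site GTGCAATA was found in 391 genes (2.68% of 3′ UTRs) with a median of 0.12, and 24.6% of them were called higher. The 8-base miR-290/miR-302 site AGCACTTA was found in 496 genes (3.40%) with a median of 0.11, and 17.7% were called higher and 5.24% lower. For miR-19 (TTTGCACA) the 896 genes (6.14%) had a median of 0.08, with 15.4% called higher. The miR-15 family, also abundant in these cells, had a median of 0.06 in 662 genes (4.54%), with 14.4% called higher, and the families miR-130, miR-148, miR-26, miR-21 and miR-182, which are present there, had 0.07 to 0.08. Families known to be low in these cells gave 0.06 for let-7 (CTACCTCA, 523 genes, 3.59%, 14.3% higher), 0.06 for miR-206 (ACATTCCA, 617 genes, 4.23%, 16% higher) and 0.05 for miR-9 (ACCAAAGA, 662 genes, 4.54%, 18% higher). The miR-15 median was thus like those of let-7 and miR-206. All these medians lay above the 0.02 of all genes, genes with 2 or more miR-206 sites reached 0.11, and no test compared the families. Genes with a miR-17 site but no miR-290/miR-302 site had a median of 0.07, genes with only a miR-290/miR-302 site 0.05, genes with both 0.11, and genes with neither −0.01.

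**Figure D2:**
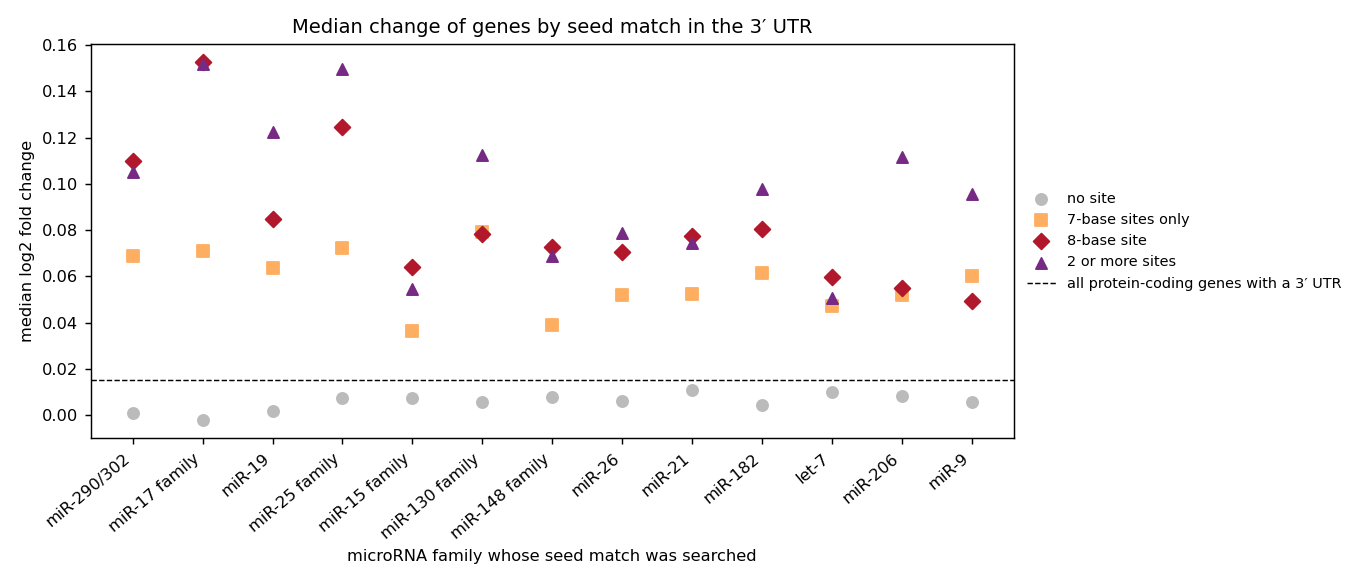
Median log2 fold change (T6B_WT minus T6B_MUT) of protein-coding genes grouped by the seed matches of each microRNA family in their 3′ UTR; symbols separate no site, 7-base sites only, an 8-base site and 2 or more sites, and the dashed line is the median of all 14587 genes. The 8-base miR-17 class reaches 0.15 and the classes with no site lie near 0.

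Counting sites of 4 families together (miR-290/miR-302, miR-17, miR-19 and miR-25/miR-92/miR-363, without miR-15), the median was −0.02 for 7984 genes with 0 sites, 0.03 for 3290 with 1, 0.06 for 1576 with 2, 0.10 for 857 with 3 and 0.14 for 880 with 4 or more. Overlapping matches of different families were counted once for each family, so these numbers can exceed the number of separate places in a 3′ UTR. With the miR-15 family added to the pool, a choice made after seeing the data, the 5 medians were −0.02, 0.014, 0.04, 0.065 and 0.11. The share called higher went from 9.43% at 0 sites to 23.1% at 4 or more, and the share called lower from 9.83% to 3.75%. Looked at from the calls, 1002 of 1755 genes called higher held a site (57.1%), compared to 404 of 1189 called lower (34%) and 5197 of 11643 not called (44.6%). The length of the 3′ UTR moved with the number of sites, from a median of 613.5 bases at 0 sites to 4013.5 bases at 4 or more, and genes in the shortest to the longest quartile of length had medians of −0.04, 0.00, 0.03 and 0.07. Within each quartile, genes with 2 or more sites were above genes with 0 sites by 0.07, 0.07, 0.08 and 0.10. The 8-base miR-17 class was above genes with no miR-17 site by 0.15, 0.13, 0.11 and 0.13, of which the first rests on 13 genes. For the 8-base miR-15 class these differences were 0.05, 0.01, −0.01 and 0.04. The 8-base miR-290/miR-302 class gave 0.14, 0.10, 0.08 and 0.06, the first from 18 genes. The 8-base let-7 class gave −0.010, 0.080, 0.005 and −0.001. For miR-206 the values were 0.057, 0.005, 0.002 and 0.020, and for miR-9 −0.029, 0.001, 0.030 and 0.023.

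**Figure D3:**
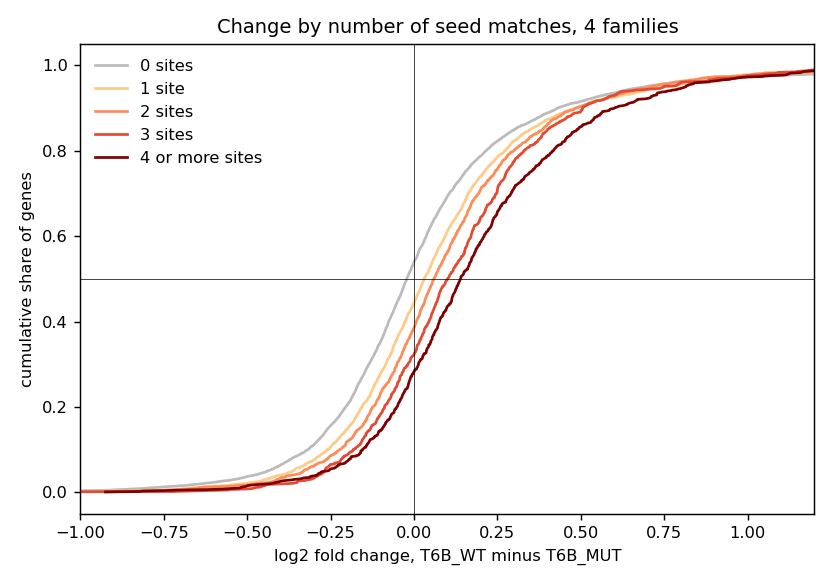
Cumulative share of genes (vertical axis) against log2 fold change (horizontal axis, T6B_WT minus T6B_MUT) for protein-coding genes with 0, 1, 2, 3 and 4 or more seed matches of the 4 families pooled (miR-290/miR-302, miR-17, miR-19 and miR-25/miR-92/miR-363). The curves move to the right from 0 to 4 or more matches, with medians from −0.02 to 0.14. Overlapping matches of different families count separately.

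Targets known from earlier work on the miR-290/miR-302 family are given here as single genes. Whether their sites account for their values was not tested. Of 18 tested members of the list, 8 were called higher (44.4%, against 9.29% of all genes) and 0 lower (1 at an unadjusted p under 0.05, and 0 by DESeq2), with a median log2 fold change of 0.18, and 6 remained without T6B_MUT replicate 1. The called members were Lats2, Lefty1, Tgfbr2, Cdkn1a, Ei24, Mbd2, Rbl2 and Smarcc2. The 28-base windows of the 3′ UTR of 6 called members, with the site in capitals (GENCODE M21 annotation, GRCm38), are given because most hold the same 8-base site:
Lats2: aattagtacagtatggaaagAGCACTTA
Lefty1: gttcactgcactgtatgcgaAGCACTTA
Tgfbr2: ctttttatatcaaaacctaaAGCACTTA
Cdkn1a: ttgaataccgtgggtgtcaaAGCACTTA
Rbl2: atatgtgtatttttcaataaAGCACTTA
Ei24: gagttttccagctgtttttttAGCACTT
The windows lie at chr14:57691086-57691113 on the minus strand (Lats2), chr1:180938193-180938220 on the plus strand (Lefty1), chr9:116087771-116087798 on the minus strand (Tgfbr2), chr17:29100480-29100507 on the plus strand (Cdkn1a), chr8:91123810-91123837 on the plus strand (Rbl2) and chr9:36779889-36779916 on the minus strand (Ei24). A site of this kind was not enough for a call: Lefty2 and Fbxl5 hold the same 8 bases and were not called:
Lefty2: cttgtccatcacccagtttaAGCACTTA
Fbxl5: taagtgttatgattaaaggcAGCACTTA
Their windows lie at chr1:180897897-180897924 on the plus strand and chr5:43757671-43757698 on the minus strand, and their log2 fold changes were 0.17 ± 0.19 and 0.04 ± 0.06.

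Lats2 (chr14:57689662-57758388, minus strand), a kinase of the Hippo pathway that restrains growth, was at 21.2, 19.3 and 19.2 CPM with T6B and at 9.81, 9.47 and 9.29 CPM with the mutant. The lowest T6B_WT library was well above the highest T6B_MUT library (log2 fold change 1.06 ± 0.10, edgeR adjusted p 6.34e-07). In Ago2-/- cells the gene was higher by 0.63. Lats2 overlaps predicted genes on its own strand, so its count is uncertain in part. Lefty1 (chr1:180935022-180938400), a secreted inhibitor of Nodal, was at 24.3, 22.9 and 22.1 CPM with T6B and at 12.6, 12.9 and 12.9 CPM with the mutant (0.85 ± 0.15, edgeR adjusted p 0.00108). All T6B_WT values were above all T6B_MUT values, whereas in Ago2-/- cells Lefty1 was at −0.83 against parental cells.

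Tgfbr2, the type II receptor for TGF-beta, was at 4.03, 3.70 and 3.41 CPM with T6B and at 2.22, 2.16 and 1.96 CPM with the mutant (0.82 ± 0.16, edgeR adjusted p 0.0019). Cdkn1a, the cyclin-dependent kinase inhibitor p21, was at 9.29, 8.93 and 9.80 CPM with T6B and at 6.01, 6.50 and 6.11 CPM with the mutant (0.59 ± 0.16, edgeR adjusted p 0.0163). The groups were separate for both genes, but the Cdkn1a call was lost without T6B_WT replicate 3, T6B_MUT replicate 1 or T6B_MUT replicate 3 (highest adjusted p 0.0643). Rbl2, the pocket protein p130, was at 16.8, 15.0 and 15.7 CPM with T6B and at 11.8, 12 and 12 CPM with the mutant (0.41 ± 0.09, edgeR adjusted p 0.00569). Ei24, a p53-induced gene, was the most abundant of the 8, at 152 to 157 CPM against 109 to 110 CPM (0.49 ± 0.06, edgeR adjusted p 1.11e-05). The methyl-CpG binder Mbd2 (0.48) and the chromatin remodeller subunit Smarcc2 (0.28, lost without any of 3 libraries) were also separate between the groups.

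Members of the list that were not called included Casp2 (−0.07), Rhoc (−0.07), Bmi1 (0.12), Wee1 (0.15), Arid4b (0.17), Akt1 (0.19) and Dkk1 (−0.69 ± 0.29, edgeR adjusted p 0.119). Dkk1, a secreted Wnt inhibitor, was at 0.47 to 0.65 CPM with T6B and at 0.79 to 0.96 CPM with the mutant, so the lowest value of the list came from a gene under 1 CPM in every library. It passed in the 6 T6B libraries alone (adjusted p 0.0361), as did Akt1 (adjusted p 0.0300).

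**Figure D4:**
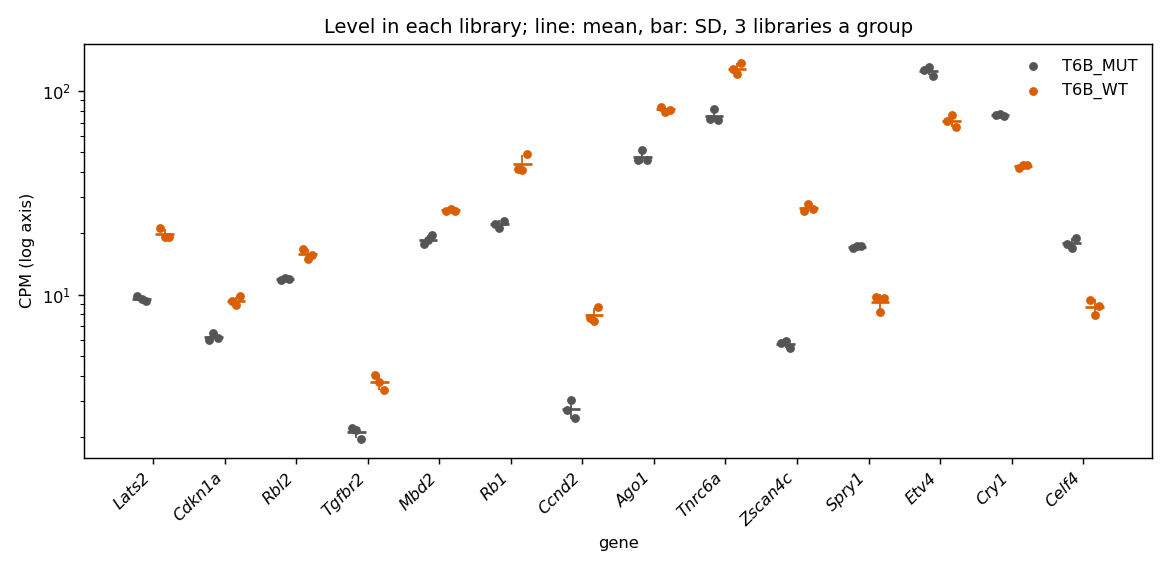
CPM on a log axis of 14 genes in each of the 3 T6B_WT (orange) and 3 T6B_MUT (grey) libraries; horizontal lines are group means and vertical bars the SD. In none of these genes do the groups overlap: Lats2 to Zscan4c are higher with T6B, and Spry1, Etv4, Cry1 and Celf4 lower.

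Among 15 cell cycle inhibitors and pocket proteins, 4 were called higher and 0 lower by edgeR (1 lower at an unadjusted p under 0.05, and 0 by DESeq2), with a median of 0.29. The share called higher was 26.7%, against 9.29% of all genes. Rb1, the retinoblastoma protein, was at 41.2, 40.9 and 49.1 CPM with T6B and at 22.3, 21.3 and 23.1 CPM with the mutant (0.97 ± 0.13, edgeR adjusted p 0.000194), with no overlap. Cdkn1c (p57) rose by 0.65 beside Cdkn1a and Rbl2. Among 25 cyclins, kinases, MYC and E2F genes 5 rose and 5 fell (20% each way, against 9.29% and 6.69% of all genes). Among those that rose were Ccnd2 and Ccnd1, D cyclins that open the G1 phase. Ccnd2 was at 7.69, 7.42 and 8.71 CPM with T6B and at 2.71, 3.05 and 2.48 CPM with the mutant (1.54 ± 0.33, edgeR adjusted p 0.0128, lost without T6B_MUT replicate 1 or 3). Ccnd1 was at 170 to 183 CPM against 105 to 107 CPM (0.74). Mycn (0.47), E2f5 (0.34) and Mycl (0.27) also rose, while E2f2 (−0.81), Myc (−0.68), E2f3 (−0.25), E2f4 (−0.25) and Cdk2 (−0.19) fell. The 5 and 5 became 3 and 2 without T6B_MUT replicate 1.

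The p53 response and apoptosis list had far more calls upward than downward. Of its 37 genes 16 were called higher (43.2%) and 1 lower (2.7%), against 9.29% and 6.69% of all genes. The median was 0.25, and 11 remained higher without T6B_MUT replicate 1. The death receptor Fas was scarce, at 0.88 to 1.27 CPM against 0.36 to 0.59 CPM (1.07 ± 0.24, edgeR adjusted p 0.00483). Perp, a membrane protein of p53-dependent apoptosis, was at 44.7, 46.5 and 47.4 CPM with T6B and at 28, 24.2 and 27.4 CPM with the mutant (0.80 ± 0.12, edgeR adjusted p 0.000588). Groups were separate in both. Bcl2l11, the death activator BIM, rose by 0.67, Ccng1 (cyclin G1) by 0.61, Casp8 by 0.56, Mdm4, a p53 inhibitor, by 0.50, and Apaf1, the core of the apoptosome, by 0.43. Btg2, Cdkn1a, Ei24, Plk2, Eda2r, Rrm2b, Tnfrsf10b and Ccng2 were also higher, at 0.33 to 0.59. The single member that fell was Bid, another death activator (−0.56).

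In the TGF-beta, Nodal and BMP pathway, 15 of 41 genes rose (36.6%) and 3 fell (7.32%), against 9.29% and 6.69% of all genes. The median was 0.30, and at least 14 stayed higher whichever library was left out. This pathway works through ligands, paired receptors and SMAD transcription factors, and in these cells Nodal acts beside LIF. Among ligands Tgfb2 (1.07), Nodal (0.43) and Gdf3 (0.42) rose, while Bmp4 (−0.50) and Inhbb (−0.29) fell. Receptors that rose were Tgfbr3 (0.96), Bmpr1b (0.89, lost without any of 4 libraries), Tgfbr2 (0.82) and Tgfbr1 (0.32). SMADs that rose were the receptor-activated Smad3 (0.61) and Smad2 (0.30) and the inhibitory Smad6. Smad6 was at 4.74, 4.08 and 4.03 CPM with T6B and at 1.85, 1.56 and 1.85 CPM with the mutant, which gave the largest change of the list (1.28 ± 0.19, edgeR adjusted p 0.000104). Of the other inhibitors Lefty1 (0.85), Ski (0.38), Bambi (0.36) and Skil (0.30) rose. The target genes diverged: Id2 was at 16.5, 17.7 and 19.3 CPM against 10.3, 10.4 and 10.4 CPM (0.78 ± 0.11, edgeR adjusted p 0.000114), and Id1 was at 24.9, 25.3 and 27.9 CPM against 36.9, 35.6 and 35.6 CPM (−0.47 ± 0.08, edgeR adjusted p 0.000427).

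The Hippo pathway restrains the co-activators YAP and TAZ. Of 25 genes 7 rose (28%, against 9.29% of all genes) and 0 fell in edgeR (1 at an unadjusted p under 0.05, and 1 by DESeq2). The median was 0.13, and 4 of those that rose remained without T6B_WT replicate 3. Beside the kinase Lats2, known YAP target genes had the largest values. Ccn1 was at 15.6, 15.5 and 16.7 CPM with T6B and at 7.36, 6.93 and 6.79 CPM with the mutant (1.18 ± 0.13, edgeR adjusted p 5.17e-06), and Ccn2 rose by 0.96. Amotl1 (0.51), Mob1a (0.28), Frmd6 (0.26) and Wwc2 (0.22), which all act on the inhibitory side of the pathway, rose by less, and the last 3 of these lost their call without 2 or more of the libraries.

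In the Wnt pathway 9 of 44 genes rose (20.5%) and 2 fell (4.55%), against 9.29% and 6.69% of all genes, with a median of 0.12. The secreted antagonists Frzb (1.97), Sfrp2 (0.91) and Sfrp1 (0.35) and the Dickkopf family member Dkk3 (0.83) rose. The ligand Wnt5a (1.04), the receptors Fzd6 (0.39) and Fzd10 (0.30), the receptor-degrading ligase Rnf43 (0.66) and the transcription factor Tcf7 (0.49) also rose, and Fzd5 (−0.27) and Dvl1 (−0.28) fell. Frzb is barely expressed, at 0.18 to 0.47 CPM against 0.07 to 0.12 CPM, and its call was lost without any of 4 libraries. Without T6B_WT replicate 2 only 4 of the 9 stayed called. Semaphorins, plexins and neuropilins, which guide axons and vessels, had 8 of 29 members higher (27.6%) and 1 lower (3.45%). Sema3d (1.28), Sema3c (0.99), Sema7a (0.87), Sema3e (0.84) and Nrp1 (0.81) rose most, followed by Sema3b (0.53), Plxna2 (0.52) and Sema4b (0.27), and Sema3f fell (−0.95). Without T6B_MUT replicate 3 the count was 5.

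ERK feedback and immediate early genes were called mostly as decreases. Fibroblast growth factor signals through the kinase ERK in these cells, and ERK activity induces its own inhibitors. Of 33 genes of this list 10 were called lower (30.3%, against 6.69% of all genes) and 0 higher in edgeR (2 at an unadjusted p under 0.05, 1 by DESeq2, and 4 in the 6 T6B libraries alone), with a median of −0.06 that lay much nearer zero than the called members. Spry1, a feedback inhibitor of receptor signalling, was at 9.68, 8.21 and 9.65 CPM with T6B and at 16.8, 17.4 and 17.3 CPM with the mutant (−0.90 ± 0.08, edgeR adjusted p 6.34e-07). Etv4, an ETS transcription factor induced by the growth factor, was at 71.2, 76.4 and 66.4 CPM with T6B and at 126, 131 and 119 CPM with the mutant (−0.81 ± 0.08, edgeR adjusted p 9.64e-07). Dusp6, the ERK phosphatase, was at 79.9, 82.7 and 89.2 CPM with T6B and at 133, 130 and 130 CPM with the mutant (−0.64 ± 0.06, edgeR adjusted p 1.01e-06). No T6B_WT library reached the lowest T6B_MUT library in any of the 3 genes. Spry2 (−0.55), Spred3 (−0.54) and the phosphatases Dusp4 (−0.39) and Dusp7 (−0.35) fell too, as did the early genes Myc, Junb (−0.61) and Ier2 (−0.36). Leaving out T6B_WT replicate 3 left 7 of the 10, and the Dusp4 call was lost when any 1 of the 6 libraries was left out. In Ago2-/- cells the median of the list was −0.21, and the difference was not tested.

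**Figure D5:**
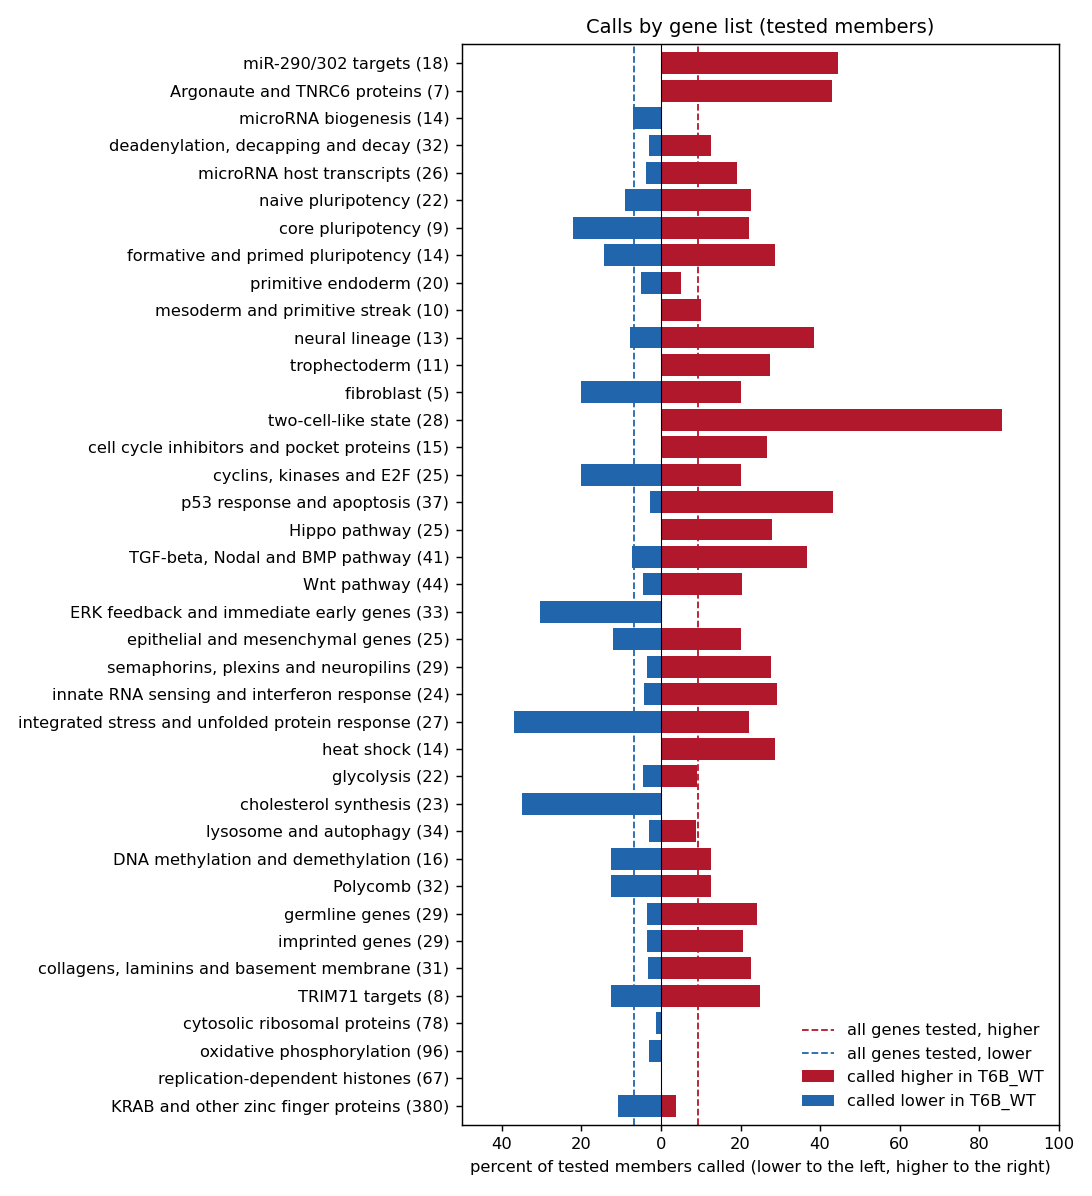
Percent of the tested members of each gene list that were called higher (red, to the right) or lower (blue, to the left) in T6B_WT, with the number of tested members in brackets; dashed lines mark the same shares over all tested genes (9.29% and 6.69%). The 2-cell-like list has the longest red bar (85.7%), and the stress response, cholesterol synthesis and ERK lists the longest blue bars (37%, 34.8% and 30.3%). Of all tested protein-coding genes 12% were called higher and 8.07% lower.

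Pluripotency factors remained abundant in both groups. Pou5f1 (OCT4) was at 816, 861 and 780 CPM with T6B and at 989, 986 and 927 CPM with the mutant (−0.24 ± 0.08, edgeR adjusted p 0.0483). Nanog was at 392, 405 and 429 CPM with T6B and at 353, 349 and 353 CPM with the mutant (0.22 ± 0.06, edgeR adjusted p 0.0204). Sox2 was at 353, 354 and 371 CPM against 311, 285 and 335 CPM (0.21 ± 0.07, edgeR adjusted p 0.047). The groups were separate for all 3 genes but the differences were small, and these calls were lost without any of 5 libraries for Nanog and Sox2 and any of 6 for Pou5f1 (highest adjusted p 0.126, 0.295 and 0.164). The Pou5f1 call was also lost with RLE or upper-quartile factors, the CPM filter and the replicate block, and the Sox2 call with RLE or upper-quartile factors and with no filter. Naive factors had 5 of 22 members higher, namely the LIF receptor chains Il6st (0.54) and Lifr (0.39), Klf2 (0.50), Prdm14 (0.47) and Dppa2 (0.26), and 2 lower, Nr0b1 (−0.42) and Nr5a2 (−0.22). Of 14 genes of formative and primed pluripotency, Zic2 (1.16), Fgf15 (0.87), Nes (0.77) and Krt18 (0.35) rose, and Pou3f1 (−0.68) and Dnmt3l (−0.51) fell. The shares higher and lower were 22.7% and 9.09% for the naive list and 28.6% and 14.3% for this one. Over all genes they were 9.29% and 6.69%.

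Markers of differentiated lineages ranged from scarce to abundant. The 20 primitive endoderm markers in the table summed to 1525 to 1552 CPM in T6B_WT and 1458 to 1542 CPM in T6B_MUT, the highest sum of these lists. Of 13 neural genes 5 rose (38.5%) and 1 fell (7.69%), against 9.29% and 6.69% of all genes. The gene that fell was Elavl3 (−0.58). The neurofilament gene Nefl was at 55.1, 59.8 and 59.9 CPM with T6B and at 23.5, 24.7 and 23.4 CPM with the mutant (1.29 ± 0.08, edgeR adjusted p 1.72e-09), Nefm rose by 1.14, Nes by 0.77, Ncam1 by 0.62 and Sox1 by 0.29. Nefl and Nefm overlap on opposite strands, so reads of the pair can be told apart only if strand was used in counting. The summed neural list was 449 to 471 CPM in T6B_WT and 356 to 375 CPM in T6B_MUT. The 12 mesoderm and primitive streak genes in the table summed to only 12.9 to 14.1 CPM against 8.17 to 9.24 CPM. Of 10 tested members 1 (10%) was called, the VEGF receptor Kdr (1.60 ± 0.17, edgeR adjusted p 3.52e-06). Trophectoderm markers had 3 of 11 higher (Gata2 1.15, Tfap2c 0.35, Krt18 0.35) and primitive endoderm markers 1 of 20 higher (Lamb1 0.22) and 1 lower (Sox7 −1.0). The trophectoderm share was 27.3% higher, and the primitive endoderm shares were 5% each way. Gata2 was under 1 CPM in every library, and its call was lost without any of 5 libraries, with DESeq2 and with the replicate block. Without T6B_WT replicate 2 the trophectoderm count was 1. The 5 fibroblast markers had 1 higher (Fbln2 0.74) and 1 lower (Thy1 −0.67).

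Stress genes were called in both directions. The integrated stress response, run by ATF4, induces amino acid supply and tRNA charging, whereas the ATF6 and XBP1 branches of the unfolded protein response induce chaperones of the endoplasmic reticulum. Of 27 genes on the list 10 fell (37%) and 6 rose (22.2%), against 6.69% and 9.29% of all genes. Those that fell were known ATF4 targets and related genes: Chac1 was at 17.7, 16.1 and 15.9 CPM with T6B and at 29.7, 26.5 and 29.2 CPM with the mutant (−0.78 ± 0.10, edgeR adjusted p 2.39e-05), and Herpud1 (−0.52), Slc7a5 (−0.46), Mthfd2 (−0.40), Trib3 (−0.39), Ddit3 (−0.37), Slc3a2 (−0.34), Phgdh (−0.32), Psat1 (−0.28) and Shmt2 (−0.22) fell by less. Herpud1 itself is a quality control factor of the endoplasmic reticulum. Those that rose also encode chaperones and quality control factors there, namely Dnajb9 (0.64), Calr (0.26), Edem1 (0.26), Hspa5 (0.26), Hsp90b1 (0.25) and Pdia4 (0.23). Only 1 of these 6 stayed called without T6B_WT replicate 3, and 6 of the 10 that fell. The heat shock genes Hspb8 (0.62), Hspa1a (0.46), Bag3 (0.36) and Hsp90ab1 (0.26) rose, 4 of 14 (28.6%), but the count dropped to 0 without T6B_WT replicate 3.

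Among metabolic lists, cholesterol synthesis had the largest share of calls. Of 23 cholesterol synthesis genes 8 fell (34.8%) and 0 rose in edgeR (0 also at an unadjusted p under 0.05 and by DESeq2), with a median of −0.14: Tm7sf2 (−0.45), Mvk (−0.41), Hsd17b7 (−0.32), Pmvk (−0.32), Cyp51 (−0.29), Msmo1 (−0.27), Fdps (−0.25) and Lss (−0.20). Mevalonate kinase, Mvk, was at 15.6, 16.8 and 16 CPM with T6B and at 21.7, 22.0 and 20.6 CPM with the mutant (edgeR adjusted p 0.000718), with no overlap. The count was 5 without T6B_WT replicate 1. Of 22 glycolysis genes, Ldhb (0.45) and Pfkm (0.41) rose (9.09%) and Pkm (−0.33) fell (4.55%). In the 6 T6B libraries alone 4 rose and 8 fell. Lysosome and autophagy genes had 3 of 34 higher (Lamp2 0.47, Atg16l1 0.25, Npc1 0.25) and 1 lower (Wipi2 −0.27). For both lists these shares (8.82% and 2.94% for the second) were below the 9.29% and 6.69% of all genes. That count of 3 was 1 without T6B_MUT replicate 3 and 10 in the 6 T6B libraries alone, and the Npc1 call was lost when any 1 of the 6 libraries was left out. Of 96 oxidative phosphorylation genes 3 fell (Uqcrq −0.44, Ndufv3 −0.30, Cox7a2l −0.26) and 0 rose in edgeR (3 at an unadjusted p under 0.05, and 0 by DESeq2), but 22 were lower when the 6 T6B libraries were fitted alone and 0 without T6B_WT replicate 3. Of 78 cytosolic ribosomal proteins only Rps2 was called (−0.31), 0 were called higher in edgeR (2 at an unadjusted p under 0.05, and 0 by DESeq2), and 14 were lower in the 6 T6B libraries alone. Of 67 replication-dependent histone genes 0 were called in edgeR's or DESeq2's fit (3 were lower at an unadjusted p under 0.05), although all 67 values were negative (median −0.35), and 3 were lower in the 6 T6B libraries alone.

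Innate immune and germline lists had 29.2% and 24.1% of their genes called higher, against 9.29% of all genes. Of 24 genes of RNA sensing and interferon response 7 rose and 1 fell. Among them Oas2, a sensor of double-stranded RNA, rose by 0.94, Ifit2 by 0.73, Ifitm3 by 0.61, Ifitm1 by 0.45 and Irf1 by 0.35, while the sensor Ddx58 (RIG-I) fell (−0.39). Ifitm3, an interferon-induced membrane protein, was at 52.4, 47.9 and 42.4 CPM with T6B and at 31.9, 29.2 and 32.2 CPM with the mutant (edgeR adjusted p 9.27e-05), with no overlap. Without T6B_WT replicate 2 the count was 4. Germline genes had 7 of 29 higher and 1 lower. The meiotic genes Smc1b (0.66), Hormad1 (0.59) and Sycp1 (0.37) rose with Dmrtb1 (0.50), Dazl (0.41), Ddx4 (0.33) and the scarce Rhox9 (1.45), and Mael fell (−0.25). Without T6B_MUT replicate 2 the count was 3 of 29, in a fit that called 1382 genes higher instead of 1998.

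Imprinted genes, expressed from 1 parental allele, had 6 of 29 higher (20.7%) and 1 lower (3.45%), against 9.29% and 6.69% of all genes. Igf2 (0.92), Sgce (0.78), Usp29 (0.73), Cdkn1c (0.65), H19 (0.57) and Ndn (0.49) rose and Snrpn fell (−0.36). Matrix genes had 7 of 31 higher (among them Col5a2 1.2, Lama3 1.05, Nid1 0.48, Col5a1 0.38, Lamb1 0.22, Nid2 0.20) and 1 lower (the integrin Itga3, −0.36). Their shares were 22.6% higher and 3.23% lower. Among 25 epithelial and mesenchymal genes, the mesenchymal Tgfbi (0.53), Vim (0.44) and Zeb1 (0.35) rose with the epithelial Krt18 (0.35) and Ocln (0.30), and the epithelial regulators Esrp1 (−0.67) and Grhl2 (−0.40) and the claudin Cldn6 (−0.38) fell. The 5 that rose (20%) were 2 without T6B_WT replicate 2, and the 3 that fell (12%) were 1 without T6B_MUT replicate 2.

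Polycomb and DNA methylation lists had as many calls upward as downward, 12.5% each way in both lists. Zinc finger genes had more downward. Polycomb subunits had 4 of 32 higher (Scml2 0.36, Ezh1 0.34, Kdm2b 0.27, Pcgf3 0.27) and 4 lower (Epop −0.44, Cbx7 −0.35, Cbx6 −0.30, Eed −0.22). The 4 lower became 2 without T6B_WT replicate 2. The Scml2 and Eed calls were lost when any 1 of the 6 libraries was left out. The Eed call was also lost with upper-quartile factors and with the replicate block. DNA methylation genes had Zbtb38 (0.54) and Mbd2 (0.48) higher and Dnmt3l (−0.51) and Tdg (−0.26) lower, of 16. Zinc finger genes of the Zfp series, many of which silence retroelements, had 14 of 380 higher (3.68%) and 41 lower (10.8%). Of all genes 9.29% were higher and 6.69% lower, and of protein-coding genes, to which this list is limited, 12% and 8.07%. Zfp352 (1.81), Zfp750 (0.92) and Zfp607b (0.79) rose most, the first of which is also a 2-cell-like gene, and Zfp317 (−0.68), Zfp707 (−0.57) and Zfp941 (−0.50) fell by the most among those named. The 41 became 19 without T6B_MUT replicate 1, in a fit that called 761 genes lower instead of 1439. The 14 became 7 without T6B_WT replicate 3, where 1456 genes were called higher instead of 1998. Of 8 known mRNA targets of TRIM71, Cdkn1a (0.59) and Rbl2 (0.41) rose, Inhbb (−0.29) fell and 5 were not called.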

How the data were processed

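RNA-seq of mouse embryonic stem cells was compared between 3 T6B_WT and 3 T6B_MUT libraries of Experiment 2. The table the authors deposited holds raw counts per gene and library, the authors' RPKM values and, per the file headers, a gene length whose column is named for QuasR. Per the submitters' processing notes, bcl2fastq 2.17, STAR 2.7.3a and GRCm38/mm10 were used. Per the labels the library kit was stranded. The gene annotation and the use of strand in counting are not given in the sources used here. RPKM served only to compare levels between genes.

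Genes were filtered with filterByExpr (minimum count 10), scaled by TMM, and fitted with edgeR 4.0.16 in R 4.3.3 (robust quasi-likelihood F test, all 12 libraries of Experiment 2, no covariate). P-values were adjusted by Benjamini-Hochberg over all 21505 tested genes, and genes under 0.05 were called. CPM are TMM-scaled, and an SE is the fold change divided by the square root of F. Ago2-/- against parental libraries was fitted the same way on the 9 libraries of Experiment 1, and no test compared both fits. The script was checked on simulated data. Symbols, 3′ UTRs and overlaps came from GENCODE M21, which held 22480 of the 22512 deposited gene IDs, and microRNA sequences from RefSeq. Library totals of 38102032 to 57872324 counts set the precision of low genes.

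The genes, families and lists were chosen with earlier results of these data known. Named genes were the 12 largest increases and 12 largest decreases among genes that were called at a mean log2 CPM of 2 or more, with a symbol that is no predicted-gene name and no overlap between the groups. For each list they were all called members up to 4, otherwise the 3 largest in each direction, and the genes of the silencing complex, Trim71, Lin28a, Pou5f1, Sox2, Nanog and the microRNA target list were always named. Other members were named after their values were seen, and a few genes are not reported here. Alternatives were RLE and upper-quartile factors, DESeq2 1.42.0, no filter, CPM over 1 in 3 libraries, the 6 T6B libraries alone, a replicate block, each library left out, a size rule, other 3′ UTRs and site types, and, added after seeing the data, a fit without the libraries labelled Ago2-/-.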

Additional observations from a re-analysis of the deposited data

How the results depend on the processing

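As reported, 3437 genes were called, 1998 higher and 1439 lower. With RLE factors 3420 were called, with upper-quartile factors 3415, with DESeq2 3366, with no filter 3417 and with the CPM filter 3278. Leaving out each library in turn gave 2045 to 2497 calls, 1284 to 1545 higher and 761 to 1014 lower, with fewer samples in each fit. Losses of calls given for single lists under these fits include this drop over all genes. The 6 T6B libraries alone gave 5632 calls, of which 2655 were lower, and without the libraries labelled Ago2-/-, added after seeing the data, there were 4626. The cause was not tested. The rule of at least 1 on the log2 scale kept 472 genes, 438 higher and 34 lower. Genes with a miR-290/miR-302 match had a median of 0.07, and those with 8-base matches only 0.11. Without T6B_WT replicate 3 the first of these fell to 0.046, its lowest value over the fits that left out 1 library, against a highest of 0.079. Most gene lists had as many or more calls in the 6 T6B libraries alone.

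The same replicate numbers occur in both groups. The deviations of same-numbered libraries from their group means correlated at −0.0791, −0.19 and 0.249 across 12639 genes, which are not independent replicates. Differently numbered libraries correlated at −0.301 to 0.339. With 3 libraries a group these deviations depend on each other, so they cannot tell whether the numbers pair the libraries. With a replicate block 3247 genes were called (1916 higher and 1331 lower).

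Of 296 named genes 281 were called, and 191 of these kept direction and call in all 14 settings tried. Over 4134 pairs of gene and setting, direction and call held in 3713, the call was lost in 413 and gained in 7. Calls of Scml2, Anxa7, Ocln, Rnf43, Cdk2, Sox1, Dppa2 and Vim were lost when any 1 of the 6 T6B libraries was left out. So were those of Calr, Hspa1a, Hspb8, Plk2, Tcf7, Wwc2, Trib3, Ddit3 and Arntl, beside those given above. Anxa7 also lost its call with RLE or upper-quartile factors, DESeq2, no filter and the replicate block. Direction changed in 1 pair: Fbxl5, which was not called, went from 0.04 to −0.012 without T6B_WT replicate 3 and reached 0.065 without T6B_MUT replicate 3. The calls gained were those of Ago2, Ago3 (adjusted p 0.0422), Trim71, Dkk1 and Akt1 in edgeR on the 6 T6B libraries alone, and of Ago2 and Trim71 (adjusted p 0.00876) without the libraries labelled Ago2-/-. At these depths, genes under 1 CPM rest on few counts.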

Other observations

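Genes of the circadian clock moved in both directions. This group and the others in this section were picked after their values were seen, so their counts support nothing. Of 19 tested clock genes 4 were higher and 6 lower with T6B in edgeR's test, against 9.29% and 6.69% of all genes. Nr1d2, a nuclear receptor that represses Arntl, was at 51.2, 53.7 and 60.9 CPM in T6B_WT and 27.9, 28.8 and 32.1 CPM in T6B_MUT (log2 fold change 0.90). Its relative Nr1d1 rose by 0.75, the activator Clock by 0.81 and Rora by 0.45. The period gene Per2 was at 1.08, 1.13 and 1.43 CPM in T6B_WT and 2.96, 4.17 and 3.08 CPM in T6B_MUT (−1.48). The repressors Cry1 (−0.83) and Cry2 (−0.33), the output gene Dbp (−0.75), Noct (−0.54) and Arntl (−0.27) were also lower. In Nr1d2 and Per2 the groups did not overlap. The labels used here do not give the hours of transfection and harvest, and a difference in harvest time was not tested.

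Genes best known from endothelium were mostly higher, 8 of 14 tested, with 1 lower. Mmrn2 was at 77.1, 77.5 and 73.9 CPM in T6B_WT and 34.2, 33 and 35.3 CPM in T6B_MUT (1.16). The receptors Kdr (1.60), Tek (1.45) and Tie1 (1.29) and the genes Vwf (0.89), Eng (0.79), Robo4 (0.57) and Pecam1 (0.38) rose too, and Esam fell (−1.70). Among 11 annexins, calcium-dependent membrane-binding proteins, Anxa1 (1.53), Anxa3 (1.03), Anxa2 (0.95) and Anxa7 (0.19) were higher and Anxa6 (−0.54) lower. Kit, the receptor for stem cell factor, was at 120, 116 and 124 CPM in T6B_WT and 61.1, 62.6 and 62.1 CPM in T6B_MUT (0.95), and Hhip, which binds hedgehog ligands, rose by 1.12.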
